A study of Mus musculus with 14 samples.

Results

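Ppp2r3c and 9 further genes of protein phosphatase 2A (PP2A) were followed through striatum and cerebellum of wildtype (WT) mice and Thap1 conditional knockout (cKO) littermates. The 10 genes were taken by symbol from the deposited count tables, as 10 of 23337 genes listed. They are the catalytic genes Ppp2ca and Ppp2cb, the scaffold genes Ppp2r1a and Ppp2r1b, and the regulatory genes Ppp2r2a, Ppp2r2b, Ppp2r2c, Ppp2r5c, Ppp2r3a and Ppp2r3c. Ppp2r3c was chosen by its count level, which differed between genotypes in both tissues, so its genotype differences are given as a description with no test. The other 9 were taken by family with their results known, and the 6 remaining PP2A subunit genes of the tables (Ppp2r2d, Ppp2r3d, Ppp2r5a, Ppp2r5b, Ppp2r5d and Ppp2r5e) serve as their comparison.

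PP2A is a major serine/threonine phosphatase of the brain. A catalytic C subunit sits on a scaffold A subunit, and 1 of many exchangeable regulatory B subunits completes the enzyme and directs it to its substrates. The regulatory genes form families known as B (Ppp2r2), B' (Ppp2r5) and B'' (Ppp2r3), with the striatins as a further family. B'' subunits bind calcium through EF hands, and Ppp2r3c encodes one of them, also known as G5PR, which was described in lymphocytes as a partner of Mcm3ap (GANP) and of the phosphatase Ppp5c.

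The tissues were microdissected from C57Bl/6 mice at 6 months of age, and total RNA was sequenced. There were 3 WT and 3 cKO striatal samples and 4 WT and 4 cKO cerebellar samples. Thap1 encodes a zinc-finger transcription factor mutated in a form of dystonia. The driver of the conditional deletion, the deleted part of Thap1, the cells in which it is deleted and any sequencing batches are not named in the labels. The labels do not say whether samples came from different animals, and p-values therefore cover the spread of these samples only, which may be technical. Where a gene is lower in such bulk tissue, fewer cells of a type and less RNA per cell cannot be told apart.

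Libraries held 12595941 to 14258141 counts in striatum and 19458954 to 28099205 in cerebellum. Levels are counts scaled to library size (CPM), with TMM factors over all 14 libraries. Striatal WT replicate 1 stood apart from the other WT striatal libraries, with a count chi-square (divided by its degrees of freedom) of 27.2 and 26.9 against them and 6.52 between those. Thap1 stood at 13.9 to 16.3 CPM in WT and 4.00 to 8.09 CPM in cKO striatum (log2 fold change −1.36, SE 0.23, adjusted p = 0.0562 by edgeR's quasi-likelihood test). In cerebellum it stood at 7.81 to 10.1 CPM in WT and 6.55 to 7.42 CPM in cKO (log2 fold change −0.34, SE 0.10, adjusted p = 0.0488, and 0.0569 with DESeq2). The summed level of 8 striatal projection neuron markers was 6957 to 9431 CPM in striatal WT and 237 to 289 CPM in cerebellar WT libraries. The summed level of 8 cerebellar neuron markers was 12361 to 13182 CPM in cerebellar WT and 2577 to 2764 CPM in striatal WT libraries. Of these 8 genes, 3 stood at 0 in all striatal WT libraries. The log2 differences of the 8 between WT tissues ran from 1.21 to 17.2, so the striatal sum comes from a part of the list.

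Ppp2r3c lies on the minus strand of chromosome 12, at chr12:55278991-55302998 (GRCm38, the assembly called mm10, GENCODE vM21). Its first exons overlap a first exon of the divergent neighbour 1110008L16Rik on the plus strand, at chr12:55299577-55382533. 1110008L16Rik, now named Prorp, encodes the nuclease subunit of mitochondrial RNase P. The shared stretch is 243 bases long, which is 4.1% of the exon bases of Ppp2r3c and 5.46% of those of 1110008L16Rik. Whether the counting used strand is not given in the sources used here. Reads in the shared stretch therefore cannot be told apart. The map of exons around the start of Ppp2r3c shows that the overlap involves 2 of the 6 annotated transcripts of 1110008L16Rik drawn there.

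**Figure D1:**
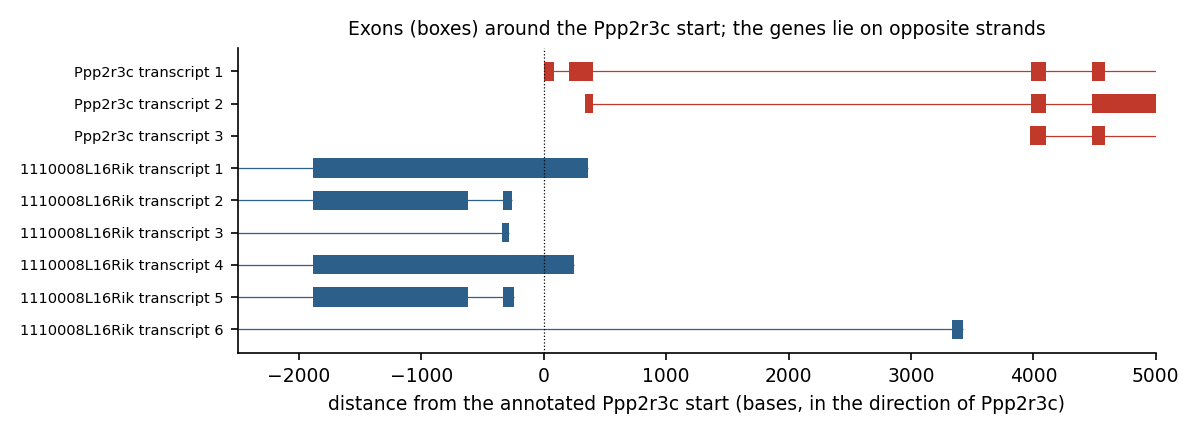
Exons (boxes) and introns (lines) of the annotated Ppp2r3c and 1110008L16Rik transcripts against the distance in bases from the annotated Ppp2r3c start, in the direction of Ppp2r3c. The first exon of 2 transcripts of 1110008L16Rik spans the start of Ppp2r3c and its first exons.

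Letters of the Ppp2r3c start region are shown because Thap1 encodes a DNA-binding factor and because the annotated start lies inside that first exon of 1110008L16Rik. A window of 300 bases around the RefSeq start (GRCm38.p6) was searched on both strands for GGGCA, the core of the THAP1 motif, for its longer form TNNGGGCA, which contains GGGCA, for CTACAA, a part of the motif of ZNF143 and THAP11, and for GCCATNTT, the YY1 motif. The stretches that hold a match are given 5′ to 3′ on the strand of the named gene, with the match in capitals.
Ppp2r3c, chr12:55302970-55302997, minus strand: cacgcgctaaaTGCCCaagcgaagaagt
Ppp2r3c, chr12:55303223-55303250, minus strand: CTACAAtacccacaacgcaccgcgctga
1110008L16Rik, chr12:55302395-55302422, plus strand: cattcctagcaGGGCAtttaccagggaa
The Ppp2r3c window held 1 GGGCA, on the opposite strand and therefore read as TGCCC, with its first base at position 15 from the start. It also held 1 CTACAA at the upstream edge of the window, position −250, and neither TNNGGGCA nor GCCATNTT. The window of 1110008L16Rik held 1 GGGCA. Of 32851 windows of that length in the RefSeq table, 53.5% held GGGCA, 13.9% TNNGGGCA, 10.3% CTACAA and 6.05% GCCATNTT. These matches describe letters only, and whether any of them is a binding site was not tested.

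Ppp2r3c was higher in cKO than in WT samples of both tissues. In striatum its levels were 9.25, 11.1 and 10.3 CPM in the 3 WT libraries and 30.1, 33.7 and 30.1 CPM in the 3 cKO libraries. In cerebellum they were 18.4, 18.5, 16.6 and 17.7 CPM in WT and 37.1, 37.8, 35.4 and 38.2 CPM in cKO. Within each tissue the genotypes did not overlap. The striatal mean was 10.2 ± 0.940 CPM for WT and 31.3 ± 2.10 CPM for cKO (SD, n = 3). The cerebellar mean was 17.8 ± 0.879 CPM for WT and 37.1 ± 1.25 CPM for cKO (SD, n = 4). From lowest to highest, the groups were striatal WT, cerebellar WT, striatal cKO and cerebellar cKO, and no library of one group overlapped a library of the next.

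The log2 fold change of Ppp2r3c, cKO against WT, was 1.61 in striatum (SE 0.12), or 3.04-fold, and 1.07 in cerebellum (SE 0.05), or 2.11-fold. Leaving out each library in turn gave 1.54 to 1.67 in striatum and 1.04 to 1.10 in cerebellum. The difference of these log2 fold changes, cerebellum minus striatum, was −0.55 (SE 0.11), again with no test, since both contrasts chose the gene. In absolute terms the tissues were closer, with a difference between the genotype means of 21.1 CPM in striatum and 19.4 CPM in cerebellum. The difference between WT tissues is not itself a contrast that chose the gene, and it was tested. It shares its WT libraries with the contrasts that did, so its p-value is not independent of the choice. Ppp2r3c was higher in WT cerebellum than in WT striatum (log2 difference 0.78, SE 0.10, adjusted p = 0.000115).

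**Figure D2:**
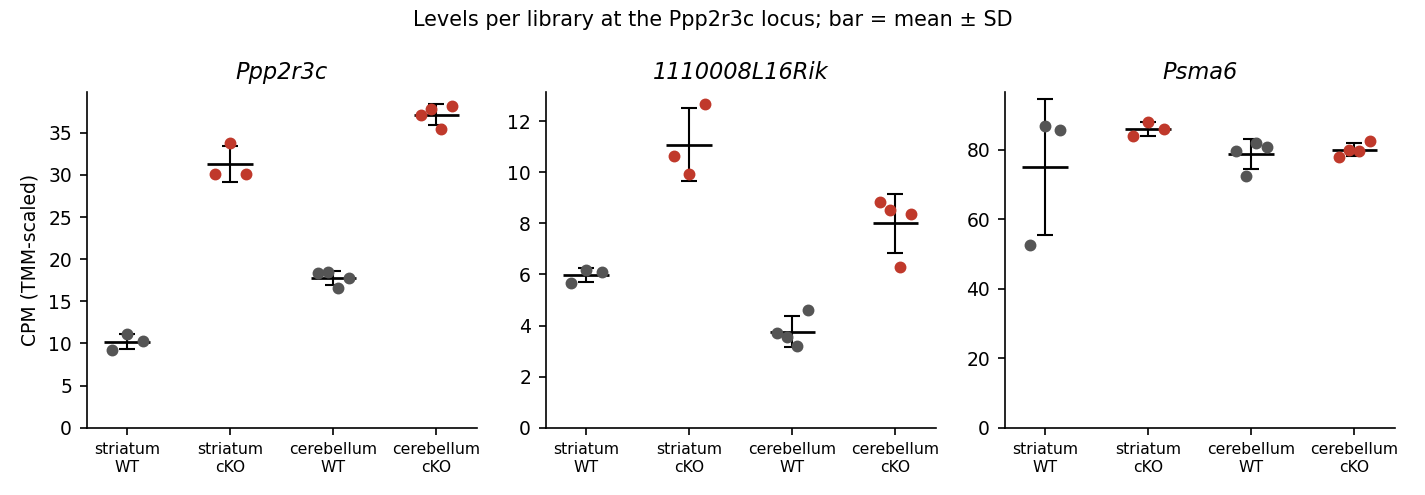
Levels in TMM-scaled CPM (vertical axis, from 0) of Ppp2r3c and of its neighbours 1110008L16Rik and Psma6 in each library by tissue and genotype, with the mean and SD as bars. Ppp2r3c and 1110008L16Rik stood higher in every cKO library than in any WT library of the same tissue, and the genotypes overlapped for Psma6.

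The overlapping neighbour 1110008L16Rik also stood higher in cKO. In striatum it had 5.65, 6.19 and 6.10 CPM in WT and 10.6, 9.94 and 12.7 CPM in cKO, without overlap (log2 fold change 0.88, SE 0.16, adjusted p = 0.0705). That missed the threshold of 0.05 with edgeR and passed it with DESeq2 (adjusted p = 0.00711) and without striatal WT replicate 1 (adjusted p = 0.0456). In cerebellum it had 3.69, 3.54, 3.20 and 4.61 CPM in WT and 8.83, 8.51, 6.30 and 8.36 CPM in cKO, and it rose (log2 fold change 1.09, SE 0.13, adjusted p = 7.03e-05). Unlike Ppp2r3c, 1110008L16Rik was lower in WT cerebellum than in WT striatum (log2 difference −0.68, SE 0.16, adjusted p = 0.00406).

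The counts of the overlapping genes were compared library by library. Ppp2r3c had 108 to 142 counts per WT library and 361 to 421 per cKO library of striatum, where 1110008L16Rik had 66 to 79 and 124 to 152. The part of reads from the shared stretch in the Ppp2r3c difference was not tested. With the counts of both genes summed, the log2 fold change was 1.38 in striatum (SE 0.11) and 1.08 in cerebellum (SE 0.05). The sum gave a smaller difference between these fold changes (−0.32, SE 0.10, against −0.55 for Ppp2r3c alone). Between WT tissues the sum differed by 0.39 (SE 0.09), against 0.78 for Ppp2r3c alone. The ratio of Ppp2r3c to 1110008L16Rik counts was 1.64 to 1.80 in WT and 2.38 to 3.40 in cKO striatum, without overlap. In cerebellum the ratio was 3.84 to 5.22 in WT and 4.20 to 5.62 in cKO, and the genotypes overlapped.

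Other genes within 250 kb of Ppp2r3c did not pass the test between genotypes. For Psma6, a proteasome subunit gene beyond 1110008L16Rik, the striatal log2 fold change was 0.19 (SE 0.17, adjusted p = 0.803) and the cerebellar one 0.03 (SE 0.04, adjusted p = 0.681). Nfkbia, which encodes an inhibitor of NF-kappaB, stood at 20.9 to 21.7 CPM in WT and 16.8 to 20.3 CPM in cKO cerebellum, without overlap (log2 fold change −0.18, SE 0.06, adjusted p = 0.104). Srp54a and 2700097O09Rik did not pass in either tissue (adjusted p = 0.677 to 0.818). Srp54b, Srp54c, Fam177a and 1700047I17Rik2 were listed at 0 in all 14 libraries. Of the 50-base words of Ppp2r3c transcripts, 8.85% also occur in the same orientation in other genes, mainly the nearby pseudogenes Gm2436 (8.73%) and Gm2446 (8.7%). Counted separately, 19.7% occur in the opposite orientation in Fam177a, and 19.7% in 1700047I17Rik2. Reads of those stretches cannot be assigned to Ppp2r3c alone.

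Between the WT tissues, 2 of the 10 members were higher and 6 lower in cerebellum than in striatum. Of all 15031 genes tested, 64.2% differed in either direction (32.7% higher, 31.5% lower). Taken in either direction, the members' count is near the share of all genes. By direction it was less even, with 6 of 10 lower and 2 of 10 higher. The members' median log2 difference was −0.30, and that of all genes 0.03. Of the other 6 subunit genes, 2 were higher and 3 lower (median −0.24). Tissue and any difference in library preparation between tissues cannot be told apart, and this comparison shares its WT libraries with the genotype comparisons.

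The catalytic and scaffold genes with the higher levels differed little between regions. Ppp2ca, the alpha catalytic gene, had 384, 446 and 516 CPM in striatal WT and 405, 377, 406 and 385 CPM in cerebellar WT libraries, which overlap (log2 difference −0.21, SE 0.09, adjusted p = 0.0771). Without striatal WT replicate 1, the lowest of its group, this became −0.30 and passed the test (adjusted p = 0.00109). The antisense RNA gene 9430098F02Rik covers 39.9% of the Ppp2ca exon bases, and its reads cannot be told apart from those of Ppp2ca without strand. Ppp2cb, the beta catalytic gene, was lower in cerebellum (log2 difference −0.31, SE 0.06, adjusted p = 0.00191), as was the alpha scaffold gene Ppp2r1a (−0.29, SE 0.07, adjusted p = 0.00459). The beta scaffold gene Ppp2r1b went the other way, from 15.2, 14.1 and 13.8 CPM in striatum to 40.8, 41.7, 44.4 and 41.8 CPM in cerebellum (log2 difference 1.53, SE 0.08, adjusted p = 1.58e-07). Exons of Sik2 on the opposite strand cover 22.2% of the Ppp2r1b exon bases, and reads there cannot be told apart without strand. Sik2 was lower in cerebellum (log2 difference −1.43, SE 0.16, adjusted p = 3.92e-05). The part of Sik2 reads in the Ppp2r1b level was not tested.

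Among the regulatory genes, the B family was lower in cerebellum throughout. Ppp2r2a, which encodes a widely expressed B subunit, had 256, 245 and 256 CPM in striatal WT and 74.2, 68.8, 72.4 and 69.7 CPM in cerebellar WT libraries. Its log2 difference was −1.84 (SE 0.06, adjusted p = 6.90e-09), a 3.59-fold lower level and the largest among the 16 subunit genes. Ppp2r2b, a neuronal B gene whose repeat expansion in humans causes a spinocerebellar ataxia, differed by −1.23 (SE 0.06, adjusted p = 1.02e-07). Ppp2r2c, a brain-enriched B gene, differed by −0.51 (SE 0.07, adjusted p = 0.000198), and Ppp2r2d, which was no member, by −0.48 (adjusted p = 0.000444).

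The B' and B'' families were mixed. Ppp2r5c of the B' family was lower in cerebellum (log2 difference −0.97, SE 0.06, adjusted p = 2.60e-07), as were Ppp2r5a (−1.30, adjusted p = 1.05e-07) and Ppp2r5d, with 202 to 259 CPM in striatal and 113 to 116 CPM in cerebellar WT libraries (adjusted p = 3.41e-06). Ppp2r5b was higher (0.41, adjusted p = 0.000404), and Ppp2r5e did not pass (−0.01, SE 0.10, adjusted p = 0.952). Of the B'' genes, Ppp2r3c and Ppp2r3d were higher in cerebellum (log2 differences 0.78 and 0.69, adjusted p = 0.000115 and 0.00230). Ppp2r3a, the third B'' gene, had 94.7, 63.8 and 72.4 CPM in striatal WT and 65.0, 66.6, 65.1 and 61.6 CPM in cerebellar WT libraries, which overlap (log2 difference −0.27, SE 0.12, adjusted p = 0.0790).

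**Figure D3:**
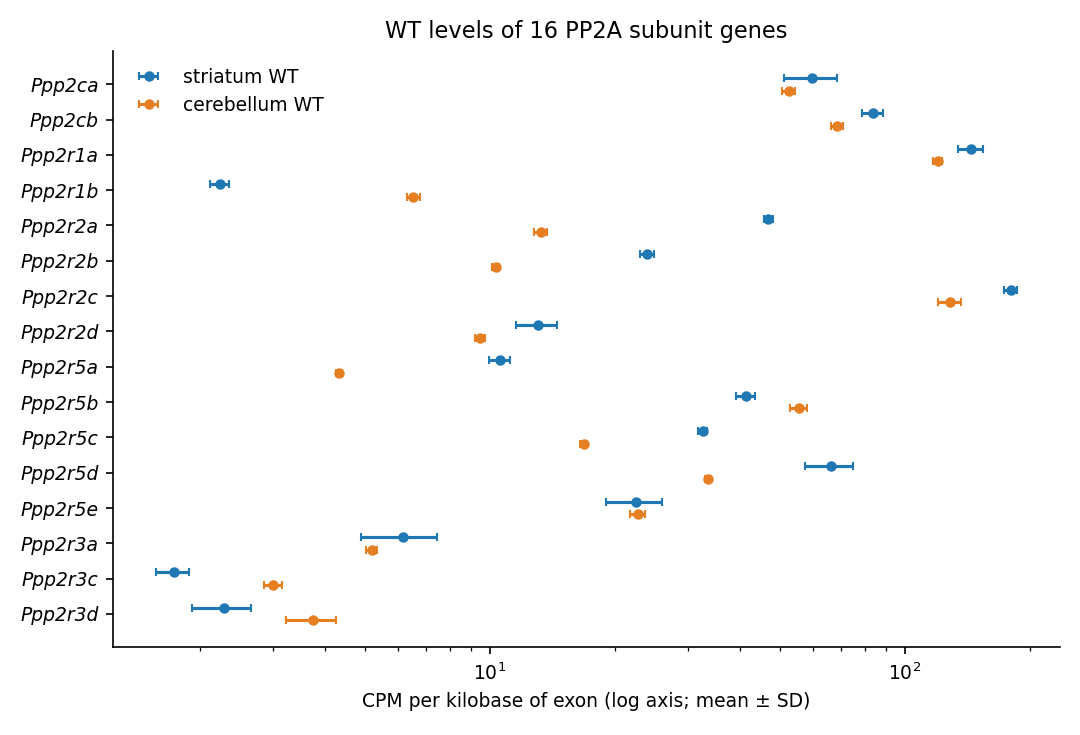
WT levels of 16 PP2A subunit genes in CPM per kilobase of exon (log axis), as mean ± SD over 3 striatal and 4 cerebellar libraries. Ppp2r2c and Ppp2r1a stand highest and Ppp2r3c lowest in both tissues, and Ppp2r2a shows the widest gap between the tissues. Levels are not corrected for stretches shared with other genes.

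Levels between genes were compared per kilobase of exon. In WT striatum Ppp2r2c had 180 ± 6.12 CPM per kb (SD, n = 3), Ppp2r1a 144 ± 10.2 and Ppp2cb 83.8 ± 4.80. Ppp2r5d at 66.3 ± 8.80 and Ppp2ca at 59.9 ± 8.84 followed and did not differ beyond their spread. At the other end stood Ppp2r3a at 6.18 ± 1.28, Ppp2r3d at 2.29 ± 0.369, Ppp2r1b at 2.23 ± 0.118 and Ppp2r3c at 1.73 ± 0.159 CPM per kb. In WT cerebellum Ppp2r2c (128 ± 8.27, n = 4) and Ppp2r1a (120 ± 3.09) differed by no more than their spread, and Ppp2r3c was again lowest (3.00 ± 0.148). With the longest transcript in place of all exon bases, Ppp2r3c stayed lowest of the 16 genes (2.43 and 4.22), and Ppp2r1a came before Ppp2r2c (204 and 196 in striatum, 170 and 140 in cerebellum). Both lengths include stretches shared with other genes. Of 50-base words, 8.85% of Ppp2r3c, 1.65% of Ppp2r3d and 0% of Ppp2r1b were shared in the same orientation. In the opposite orientation, Ppp2r3c shared 19.7% with Fam177a and Ppp2r1b 20.4% with Sik2. Whether reads lost or gained there change the order of the lowest genes was not tested. In cKO, Ppp2r3c reached 5.29 CPM per kb in striatum and 6.27 in cerebellum.

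Between genotypes, the other 9 members did not pass the test in either tissue. In striatum 0 of 9 were called with edgeR, DESeq2 or limma-voom, where 0.384% of 14080 genes were called with edgeR, and 1 of 9 had an unadjusted p under 0.05, as 7.24% of all genes had. In cerebellum 0 of 9 were called by any of these tools, where 7.59% of 14775 genes were called with edgeR, and again 1 of 9 had an unadjusted p under 0.05, as 22.5% of all genes had. Their median log2 fold change was −0.02 in striatum and −0.01 in cerebellum, beside 0.00 over all genes in each tissue. In striatum 3 of the 9 had genotypes that did not overlap, against 15.1% of all genes, and in cerebellum 1 of 9, against 14.2%.

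**Figure D4:**
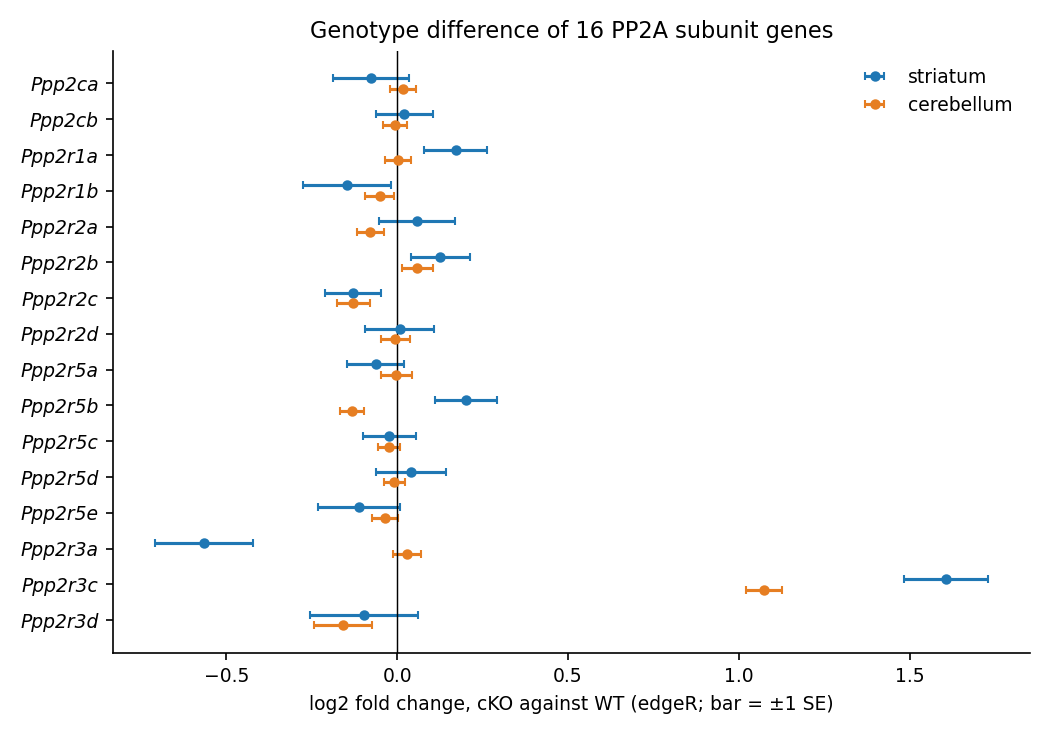
Log2 fold change, cKO against WT, of 16 PP2A subunit genes in striatum and cerebellum (edgeR, bars are ± 1 SE). Ppp2r3c stands at 1.61 and 1.07, and the other 15 genes lie between −0.57 and 0.20.

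The catalytic genes had small differences between genotypes. Ppp2ca had 427, 423 and 430 CPM in striatal cKO libraries, within its WT range, and its log2 fold change in that tissue was −0.08 (SE 0.11, adjusted p = 0.861). In cerebellum its log2 fold change was 0.02 (SE 0.04), with a 95% interval of −0.06 to 0.09. Ppp2cb had 116 to 130 CPM in WT and 122 to 130 CPM in cKO striatum (log2 fold change 0.02, SE 0.08). Its cerebellar log2 fold change was −0.01, with a 95% interval of −0.08 to 0.06.

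For the scaffold genes, Ppp2r1a had 459, 528 and 490 CPM in WT and 529, 585 and 557 CPM in cKO striatum. All 3 cKO libraries were above all 3 WT libraries, by less than 1 CPM at the closest, and the difference did not pass (log2 fold change 0.17, SE 0.09, adjusted p = 0.745). In cerebellum its log2 fold change was 0.00, with a 95% interval of −0.07 to 0.08. Ppp2r1b had 40.8 to 44.4 CPM in WT and 40.0 to 40.8 CPM in cKO cerebellum, lower without overlap (log2 fold change −0.05, SE 0.04, adjusted p = 0.513). In striatum Ppp2r1b overlapped between genotypes (log2 fold change −0.15, SE 0.13, adjusted p = 0.803).

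Of the B and B' members, Ppp2r2c was the one with the lowest unadjusted p in cerebellum. It had 534, 545, 608 and 596 CPM in WT and 502, 504, 522 and 544 CPM in cKO, an overlap by 1 library, and −0.13 as log2 fold change (SE 0.05, adjusted p = 0.117). In striatum it had 791, 779 and 831 CPM in WT and 729, 737 and 740 CPM in cKO, lower without overlap (log2 fold change −0.13, SE 0.08, adjusted p = 0.776). Ppp2r2a, Ppp2r2b and Ppp2r5c overlapped between genotypes in both tissues, with log2 fold changes of −0.02 to 0.13 in striatum and −0.08 to 0.06 in cerebellum.

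Ppp2r3a, the other B'' member, had the largest striatal difference after Ppp2r3c, in the opposite direction. Its striatal levels were 94.7, 63.8 and 72.4 CPM in WT and 51.3, 54.8 and 50.6 CPM in cKO. The genotypes did not overlap, and the highest value was that of WT replicate 1, the library that stood apart. On the log2 scale the cKO level differed by −0.57 (SE 0.14, adjusted p = 0.267 by edgeR's quasi-likelihood test on the striatal libraries) and −0.38 without WT replicate 1 (adjusted p = 0.0759). With all 14 libraries in 1 model it passed (−0.56, adjusted p = 0.00713). In cerebellum Ppp2r3a had 65.0, 66.6, 65.1 and 61.6 CPM in WT and 68.2, 63.9, 63.3 and 65.9 CPM in cKO, which overlap (log2 fold change 0.03, SE 0.04, adjusted p = 0.746).

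Myelin markers were lower in cKO striatum along with these differences. The summed level of 10 such genes was 7809 to 9493 CPM in WT and 4980 to 6181 CPM in cKO striatum, and 4912 to 5463 CPM and 4260 to 4793 CPM in cerebellum. By edgeR 4 of the 10 were called lower in striatum, where 0.384% of all genes were called. In cerebellum 7 of 10 were, where 7.59% of all genes were called, with no marker at 0. DESeq2 called 9 lower in each tissue, and limma-voom called 10 in striatum and 8 in cerebellum. All 10 had negative log2 fold changes in both tissues. The summed level of 7 astrocyte markers was 1920 to 2229 CPM in WT and 2327 to 2640 CPM in cKO striatum. Of these 7, edgeR called 0 in striatum, and DESeq2 and limma-voom each called 2 higher. In cerebellum their sum was 5161 to 5455 CPM in WT and 5081 to 5746 CPM in cKO. There 3 of 7 were called higher and 2 lower by each of these 3 tools, where edgeR called 7.59% of all genes. Choroid plexus markers (5 genes) summed to 7.36 to 28.2 CPM in WT and 24.1 to 167 CPM in cKO striatum, and to 16.2 to 2069 CPM and 683 to 3383 CPM in cerebellum. The part of these cell types in the levels of Ppp2r3a, Ppp2r1a or Ppp2r3c was not tested.

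For the other 9 members, the difference of the genotype effect between tissues did not pass edgeR's test of the interaction. The interaction subtracts the striatal from the cerebellar log2 fold change in a model of all 14 libraries, built from the same samples as both genotype comparisons. By edgeR 0 of 9 were called, where 0.39% of 15401 genes were, and 2 of 9 had an unadjusted p under 0.05, as 11.6% of all genes had. For Ppp2r3a the interaction was 0.58 (SE 0.14, adjusted p = 0.0913 by edgeR), and it passed with DESeq2 (adjusted p = 0.0187) and limma-voom (adjusted p = 0.0389). It was 0.40 without striatal WT replicate 1 (adjusted p = 0.0198) and 0.70 without WT replicate 2 (adjusted p = 0.00824). Those were the only 2 of 14 fits leaving out 1 library that passed, the others reaching an adjusted p of 0.205, and with the replicate block it was 0.53 (adjusted p = 0.493). For Ppp2r1a it was −0.18 (SE 0.08, adjusted p = 0.409).

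Of the 6 other subunit genes, Ppp2r5b of the B' family differed in opposite directions. It had 131, 144 and 143 CPM in WT and 175, 157 and 150 CPM in cKO striatum, higher without overlap, and did not pass (log2 fold change 0.20, SE 0.09, adjusted p = 0.699). In cerebellum it had 191, 177, 197 and 184 CPM in WT and 165, 169, 176 and 168 CPM in cKO, and it fell (log2 fold change −0.13, SE 0.04, adjusted p = 0.0337). The cerebellar call held in 2 of 8 fits that each left out 1 library (adjusted p = 0.0106 to 0.133). It was lost with all 14 libraries in 1 model (adjusted p = 0.280). The interaction was −0.35 (SE 0.08, adjusted p = 0.103 by edgeR and 0.0103 by DESeq2). The other 5 overlapped between genotypes in both tissues, with log2 fold changes of −0.11 to 0.04 in striatum and −0.16 to −0.00285 in cerebellum.

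The shares of each gene within its subunit class, from CPM per kb, follow these differences. Ppp2r1a made up 98.5 ± 0.175% of scaffold transcripts in WT striatum (SD, n = 3) and 94.8 ± 0.0913% in WT cerebellum (SD, n = 4). Ppp2ca made up 41.5 ± 2.97% of the catalytic pair in WT striatum and 43.4 ± 1.08% in WT cerebellum, a difference within the spread. This share rests on annotated exon lengths of 7490 bases for Ppp2ca and 1469 for Ppp2cb. In CPM, not divided by length, Ppp2ca stood higher (448 against 123 in WT striatum, 393 against 101 in WT cerebellum). Which of the annotated exons were in use was not tested. Ppp2r2a held 10.5 ± 0.353% of regulatory transcripts in WT striatum and 4.33 ± 0.162% in WT cerebellum.

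Ppp2r3c held 17.1 ± 2.96% of the summed B'' level in WT striatum and 45.4 ± 1.16% in cKO striatum. In cerebellum the share was 25.2 ± 1.12% in WT and 42.2 ± 1.01% in cKO. Of all 12 regulatory genes together, Ppp2r3c was 0.387 ± 0.0396% in WT and 1.19 ± 0.0837% in cKO striatum, and 0.982 ± 0.0734% and 2.16 ± 0.0878% in cerebellum. The B'' family as a whole was 2.28 ± 0.205% of regulatory transcripts in WT and 2.62 ± 0.117% in cKO striatum. In cerebellum it was 3.90 ± 0.256% and 5.13 ± 0.219%, and the genotypes overlapped in neither tissue, although the closest striatal libraries of WT and cKO both stood at 2.52%. This sum includes Ppp2r3c, the gene chosen for its difference. In striatum the share of Ppp2r3a was 1.39 ± 0.303% in WT and 0.944 ± 0.0456% in cKO, and that of Ppp2r3d 0.511 ± 0.0704% and 0.483 ± 0.0118%. The B family held 59.0% and 57.0% in WT and cKO striatum, and 52.7% and 51.4% in cerebellum. No correction was made for the stretches that Ppp2r3c shares with other genes. These are shares of RNA, and the levels of the proteins were not measured.

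**Figure D5:**
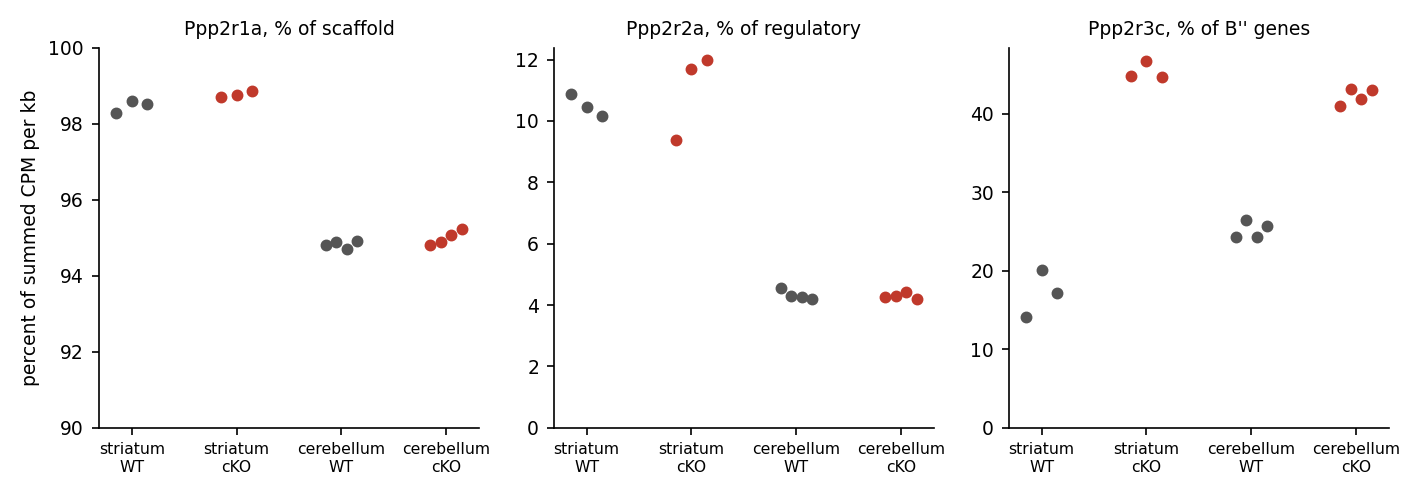
Share in percent of CPM per kilobase held by Ppp2r1a among the scaffold genes (axis from 90), by Ppp2r2a among the regulatory genes and by Ppp2r3c among the B'' genes (axes from 0). Each point is 1 library. The first and second shares separate the tissues, and the Ppp2r3c share separates the genotypes within both tissues.

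Genes that build, inhibit or resemble PP2A were taken from lists of the pathway. The 5 assembly factors (Ppp2r4, the PTPA activator; Ppme1 and Lcmt1, which remove and add a methyl group on the catalytic subunit; Igbp1 and Tiprl) gave 0 calls in either tissue by edgeR, DESeq2 or limma-voom. Of all genes, edgeR called 0.384% in striatum and 7.59% in cerebellum. Of these 5 genes, 0 in striatum and 1 in cerebellum had an unadjusted p under 0.05, as 7.24% and 22.5% of all genes had. Their median log2 fold change was 0.11 in striatum and −0.01 in cerebellum. The 8 genes of the phosphatases PP1, calcineurin and PP5 gave 0 calls by the same tools (medians 0.00 and 0.01). Of these, 0 in striatum and 1 in cerebellum had an unadjusted p under 0.05, beside the same shares of all genes.

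Among 10 inhibitor genes 2 rose in cerebellum by edgeR, where 7.59% of all genes were called. In striatum 0 were called by edgeR, where 0.384% of all genes were. At an unadjusted p under 0.05 there were 4 in cerebellum, beside 22.5% of all genes, and 1 in striatum, beside 7.24%. The median log2 fold changes were 0.06 in cerebellum and 0.03 in striatum. DESeq2 called 2 of the 10 higher and 1 lower in cerebellum. Fam122b, a paralog of the PP2A inhibitor gene Fam122a, had 8.98 to 10.9 CPM in WT and 13.8 to 15.5 CPM in cKO cerebellum (log2 fold change 0.53, SE 0.08, adjusted p = 0.000371). In striatum Fam122b had 6.58 to 9.67 CPM in WT and 13.6 to 17.0 CPM in cKO, without overlap (log2 fold change 0.97, SE 0.18, adjusted p = 0.0768). DESeq2 and limma-voom each called 1 striatal inhibitor gene higher, and without striatal WT replicate 1 edgeR called Fam122b. C330027C09Rik, now named Cip2a, rose in cerebellum (log2 fold change 0.46, SE 0.12, adjusted p = 0.0325), a call that held in 2 of 8 fits that left out 1 library.

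Of 15 genes of the striatin complex (STRIPAK), 1 fell in cerebellum and 0 were called in striatum by edgeR, DESeq2 or limma-voom (7 and 0 at an unadjusted p under 0.05, beside 22.5% and 7.24% of all genes). The median log2 fold change was 0.02 in cerebellum and −0.05 in striatum. The gene that fell, Strn4, encodes a striatin-family regulatory subunit (log2 fold change −0.14, SE 0.03, adjusted p = 0.0154, held in 5 of 8 fits that left out 1 library). Of 13 genes of the related phosphatases PP4 and PP6, 1 fell in cerebellum, Ppp6r2, a regulatory subunit of PP6 (−0.14, SE 0.03, adjusted p = 0.0149, held in 6 of 8 such fits). With the replicate number as a block, Ppp4r4 was called higher in cerebellum as well. In striatum 0 of these 13 were called by any of the 3 tools, and 1 had an unadjusted p under 0.05. The medians were −0.04 in cerebellum and −0.10 in striatum. These cerebellar counts stand beside the 7.59% of all genes called there.

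The described partners of Ppp2r3c did not pass between genotypes. For Mcm3ap the striatal log2 fold change was −0.06 (SE 0.09, adjusted p = 0.861) and the cerebellar one 0.04 (SE 0.04, adjusted p = 0.637). Ppp5c had 0.20 in striatum (SE 0.12, adjusted p = 0.767) and −0.06 in cerebellum (SE 0.03, adjusted p = 0.279). Between WT tissues, Ppp5c was higher in cerebellum, as Ppp2r3c was (log2 difference 1.05, SE 0.10, adjusted p = 1.13e-05), and Mcm3ap was lower (−0.67, SE 0.07, adjusted p = 2.29e-05).

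The genes most like Ppp2r3c across the libraries were found from log2 CPM with each tissue's mean subtracted, over 14 libraries and 13112 genes. The highest Pearson correlations were those of Csad (0.99), a taurine synthesis enzyme, of Aars2 (0.98), a mitochondrial alanyl-tRNA synthetase, and of Dnlz (0.98), a mitochondrial chaperone partner. Snrnp35 (0.98), a protein gene of the minor spliceosome, and Nif3l1 (0.97) came next. At the negative end were Tmed10 (−0.99), a cargo receptor of the early secretory pathway, and Ehd3 (−0.97), an endocytic recycling gene. With tissue removed, these values mostly restate the genotype difference that chose Ppp2r3c, and the libraries share their scaling. Side by side, the striatal and cerebellar log2 fold changes were 1.96 and 1.54 for Snrnp35, 1.12 and 0.88 for Aars2, 0.55 and 0.33 for Csad, and −0.53 and −0.29 for Tmed10.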

How the data were processed

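For each sample the authors deposited raw read counts of 23337 gene symbols. Per the submitters' processing notes, the tools were DESeq2, HTSeq 0.6.1p1, STAR and cutadapt 1.13 and the build mm10, in roles and an order not stated. The annotation and strand setting used were not given in the sources used here. Library totals were 12595941 to 28099205 counts, so a gene at 10 CPM rests on about 100 or more counts, which limits how small a difference can be seen at that level.

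Counts were tested with edgeR 4.0.16 (R 4.3.3): TMM factors, filterByExpr (minimum count 10, minimum total 15), the robust quasi-likelihood test and Benjamini-Hochberg adjustment over all genes tested, with a call at an adjusted p under 0.05. Each SE is the log2 fold change over the root of its F value. Genotypes were compared within each tissue, the WT tissues with each other, and the interaction was fitted over 14 samples. CPM were computed over all 14 libraries, and CPM per kb with the union of annotated exons (GENCODE vM21). Of the symbols, 89.8% matched by symbol, 8.23% by a synonym and 1.99% not at all. Start windows come from RefSeq (GRCm38.p6). Windows were matched for all members but Ppp2cb, Ppp2r2a and Ppp2r2b.

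The genes named are all subunits, Thap1, annotated genes within 250 kb of Ppp2r3c, up to 4 called genes per pathway list and tissue, and the 5 genes most and 3 least correlated with Ppp2r3c. Predicted or unnamed symbols were skipped among the last, and 1 gene that the rule takes is not reported here. Sik2 was named after its value was seen. The members, lists and rules were chosen with earlier results of these data known.

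The alternatives were DESeq2 size factors, limma-voom with quality weights (limma 3.58.1), DESeq2 1.42.0, testing all genes or only those above a mean of 1 CPM, a replicate block, all 14 libraries in 1 model, leaving out each library, library totals, the longest transcript, and the counts of Ppp2r3c and 1110008L16Rik summed. The models were tested on simulated data. In cerebellum, same-numbered WT and cKO samples deviated together over genes (correlations 0.367, 0.179, 0.102 and 0.252), so the numbers from the labels were taken to pair them, although 3 of the 4 WT samples correlated more with a cKO sample of another number (0.439, 0.465 and 0.323). The cerebellar p-values given here come from fits without this pairing. The block changed no call of a subunit gene in cerebellum.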

Additional observations from a re-analysis of the deposited data

Results flagged for a closer look

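Of 74 groups of 4 libraries checked for a library far from the rest, 3 held one, and chance gives about 1 in 20 groups. Csad stood at 45.6 CPM in cerebellar cKO replicate 2, against 43.7 to 43.9 CPM in the other 3 libraries of the group. Nif3l1 stood at 32.1 CPM in the same library, against 32.9 to 33.0 CPM. Mcm3ap, the described partner of Ppp2r3c, stood at 64.9 CPM in cerebellar WT replicate 1, against 70.7 to 71.5 CPM. No group of 4 libraries of a PP2A subunit gene held such a library.

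Ppp2r5b was higher in every cKO than in every WT library of striatum (log2 fold change 0.20) and lower in every cKO than in every WT library of cerebellum (−0.13). The test of that difference gave −0.35 with an adjusted p of 0.103 by edgeR and 0.0103 by DESeq2.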

How the results depend on the processing

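The striatal data limit what can be said of small differences: 54 genes were called there, and the count moved to 153 with DESeq2, 178 with limma-voom, 15 with the replicate block and 376 with all 14 libraries in 1 model. Leaving out 1 library gave 3 to 122 striatal calls, with 122 without WT replicate 1, 12 without WT replicate 3 or cKO replicate 2, and 3 without cKO replicate 1 or 3. The 1121 cerebellar calls became 251 with all 14 libraries in 1 model and 739 to 1165 with 1 library left out, 739 without WT replicate 3 and 744 without cKO replicate 2. The 60 interaction calls became 228 with DESeq2, 1 with the replicate block and 17 to 193 with 1 library left out, 193 without striatal WT replicate 2 and 108 without WT replicate 1. The 9646 calls between WT tissues became 8744 to 10849 with 1 library left out and 8408 with the replicate block. Summing the counts of Ppp2r3c and 1110008L16Rik lowered the striatal log2 fold change to 1.38. The cause of these shifts was not tested.

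Under none of the alternatives run did a reported gene that was called change its direction. Beyond the calls named in the report, Ppp2ca between WT tissues passed with DESeq2 (adjusted p = 0.0439), limma-voom (0.00258) and all 14 libraries in 1 model (0.0235). Ppp2r3a passed there with all 14 libraries (0.0196) and without striatal WT replicate 2 (0.0148). 1110008L16Rik passed in striatum with limma-voom (0.0186) and all 14 libraries (0.00659). Thap1 passed in striatum with DESeq2, limma-voom, no low-count filter and all 14 libraries (2.91e-05 to 0.0172). In cerebellum Thap1 missed the threshold with DESeq2 size factors, a mean of at least 1 CPM, limma-voom, DESeq2 and all 14 libraries (0.0503 to 0.353), and it held in 2 of 8 fits that left out 1 library (0.0224 to 0.170). Library totals in place of TMM factors moved 42 of 64 levels by more than 1 SD, and the longest transcript moved 57 of 64.

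In striatum the same-numbered samples correlated at 0.280, 0.163 and 0.0988, the last just below the lowest cerebellar value (0.102). WT replicates 1 and 2 correlated most with the cKO sample of their own number, and WT replicate 3 with cKO replicate 2 (0.137). The striatal samples were not taken as paired, and these values do not settle whether they were. Between WT tissues the values were 0.237, −0.136 and 0.120. The replicate block changed no call of the 15 subunit genes other than Ppp2r3c, whose genotype contrasts are given without a test.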
